A study of Mus musculus with 21 samples.

Results

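The genes described here are the Fc receptor genes that mouse conventional dendritic cells (cDCs) can use to bind immunoglobulin G (IgG), together with their signalling chain and 1 Fc receptor relative. They are Fcgr1, Fcgr2b, Fcgr3, Fcgr4, Fcer1g, Fcgrt and Fcrla, taken by gene symbol, and make up 7 of the 37734 genes in the deposited tables. The study sequenced mRNA of cDCs sorted from pooled spleens or thymuses of C57BL/6 mice aged 6 to 8 weeks, after enrichment of CD11c+ cells on beads. Immature cells were sorted as CCR7- Esam- and mature cells as CCR7+ Esam+, cDC1 as CD24+ CD11b- cells negative for F4/80, Ly6g, Ly6c, DX5 and B220, and cDC2 as CD24- CD11b+ B220- cells. There were 5 libraries of splenic immature cDC1, 4 of thymic immature cDC1, and 3 each of splenic immature cDC2, thymic immature cDC2, thymic mature cDC1 and thymic mature cDC2. No gene was deleted and no agent was given, but per the study's methods the cells were incubated with 2.4G2, an antibody that binds the proteins of Fcgr3 and Fcgr2b, before they were isolated, which all groups share.

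Fc receptors bind the constant part of antibodies. In the mouse, the products of Fcgr1, Fcgr3 and Fcgr4 are activating IgG receptors that signal through the common chain encoded by Fcer1g, whose cytoplasmic tail carries an immunoreceptor tyrosine-based activation motif (ITAM). Fcgr2b encodes the inhibitory IgG receptor, which carries its own inhibitory motif (ITIM) and recruits phosphatases, so that the balance of the activating and inhibitory receptors sets how a dendritic cell responds to immune complexes. Fcgrt encodes the heavy chain of the neonatal Fc receptor FcRn, which pairs with beta-2 microglobulin, binds IgG in acidic endosomes and directs IgG and its cargo away from or towards degradation. Fcrla encodes an Fc receptor-like protein without a membrane anchor that is retained inside the cell and is best known from B cells.

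Of the 7 genes, 5 lie together on chromosome 1 (mm10, GENCODE M21), within 316.79 kb at chr1:170917576-171234365. In that order they are Fcrla (chr1:170917576-170927583, minus strand), Fcgr2b (chr1:170958617-170976547, minus), Fcgr4 (chr1:171018920-171029761, plus), Fcgr3 (chr1:171051174-171064935, minus) and Fcer1g (chr1:171229572-171234365, minus). Fcgr1 lies at chr3:96282909-96293969 and Fcgrt at chr7:45092990-45103851, both on the minus strand. The bases that encode the opposing signalling motifs are shown because the report turns on which of them a cell transcribes; they were read from the principal coding transcripts of GENCODE M21, with the codons of the motif tyrosines in capitals. The Fcer1g stretch encodes 15 residues from exons that span chr1:171229889-171230072, and the Fcgr2b stretch encodes 6 residues at chr1:170961071-170961088.
Fcer1g ITAM: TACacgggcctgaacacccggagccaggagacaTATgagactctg
Fcgr2b ITIM: atcaccTACtcacttctc
The ITAM pattern, a pair of closely spaced tyrosine units, was found in Fcer1g alone among the 7 encoded proteins, whereas the looser ITIM pattern of 1 tyrosine unit matched in all but Fcgr3.

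Fcgr2b and Fcgr3 are near copies in their extracellular parts, which bears on how their reads can be assigned. Their coding sequences were identical at 86.7% of aligned bases, against 64.1% to 67.3% for the other 5 pairs of the 4 Fcgr genes, and the longest run they shared was 129 bases. A stretch of 90 bases without a mismatch is shown once for both genes (Fcgr2b at chr1:170967992-170968081, Fcgr3 at chr1:171057703-171057792).
Fcgr2b and Fcgr3: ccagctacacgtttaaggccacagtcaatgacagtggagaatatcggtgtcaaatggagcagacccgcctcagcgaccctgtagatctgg
Of all 100-base stretches in the transcripts of Fcgr3, 2.54% also occurred in another gene, namely Fcgr2b, and of those of Fcgr2b 1.40% did so. No 100-base stretch of the other 5 genes occurred in transcripts of another gene. Fcgr2b also shares 155 exonic bases, 2.68% of its exons, with an antisense gene that is annotated on the opposite strand, and the other 6 genes share no exonic bases with an annotated neighbour.

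The promoters were searched because 5 of the 7 genes were lower in mature cells of both subsets. RefSeq promoters (GRCm38.p6, the mm10 build) of 300 bases, from 250 before to 50 after the annotated start, were found for all 7 genes. The hexamer GAGGAA, the core bound by the myeloid and B cell factor PU.1, occurred on either strand in promoters of 4 of the 7, namely Fcgr1, Fcgr3, Fcgr4 and Fcrla, and in 31.3% of the 27025 genes with a promoter. In these 4 genes the match lay on the strand opposite to the gene, 6 to 55 bases before the RefSeq start, and is shown in capitals on the gene strand in windows of 30 bases (Fcgr1 at chr3:96294007-96294036, Fcgr3 at chr1:171059392-171059421, Fcgr4 at chr1:171018892-171018921, Fcrla at chr1:170927603-170927632).
Fcgr1: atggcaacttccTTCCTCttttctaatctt
Fcgr3: gagtccatttccTTCCTCtttttgtagttc
Fcgr4: aaggctatttacTTCCTCtcttctagtcaa
Fcrla: agttaggtttatTTCCTCttttctaatttg
The composite element bound by ETS and IRF factors together occurred in the promoter of Fcgr2b alone and in 3.16% of all genes, and TTCNNNGAA, the element bound by STAT factors, in that of Fcgr1 alone and in 9.55% of all genes. Of the 5 lower genes, Fcgr3, Fcgr4 and Fcrla held GAGGAA and Fcgr2b and Fcgrt did not, while Fcgr1 held it and was not called lower. These matches describe the letters in these windows and do not show binding.

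Depth was 14266867 to 40119669 reads per library, recovered from the deposited values, which are whole multiples of what 1 read is worth. Splenic immature cDC1 replicates 4 and 5 carried the same library name number, index and lane and differed far less than the 9 other pairs of their group (chi-square per degree of freedom 2.44 against 25.0 to 176), so they were joined and 20 samples were analysed. Splenic cDC1 replicate 1 carried that name number too, in lane 5, and thymic immature cDC1 replicates 3 and 4 shared another. Each of these groups of 4 samples thus held 3 name numbers. Nothing in the labels says that the samples of a group came from separate sets of mice, so that the p values measure the spread between these samples, and reads without molecular identifiers make the counting intervals cover counting error only. Summed markers of the subsets and of maturation went in the direction of the sorted identities. The sort markers CD24 and Esam were not among them, whereas Ccr7 was. The summed value of 5 cDC1 markers was 78004 to 91759 in immature cDC1 against 2818 to 4785 in immature cDC2. That of 5 cDC2 markers was 39966 to 46198 in immature cDC2 against 325 to 3412 in immature cDC1. That of 5 mature DC markers was 358371 to 538816 in mature against 3358 to 33563 in immature cells. The mature subsets stood closer together. Their cDC1 marker sum was 40302 to 43791 in cDC1 and 14299 to 22307 in cDC2. Their cDC2 marker sum was 2109 to 3605 in cDC1 and 13915 to 17547 in cDC2, so the 2 sums overlapped in mature cDC2. Thymic mature cDC2 replicate 3 stood apart from the other 2 libraries of its group (chi-square per degree of freedom 144 and 125, against 26.9 between those 2), and tested differences of the 7 genes that rest on it are given with and without it. All libraries of mature cells were run in lane 8, and within lane 8 alone the differences between mature and immature cells of the called genes kept their sign (Fcgr2b -7.62 in cDC1 and -3.41 in cDC2). In bulk samples, fewer cells that transcribe a gene cannot be told apart from less RNA per cell.

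Across the 6 groups each of the 7 genes had its own order of levels (normalized read count, mean ± SD). Fcgr2b, Fcgr1 and Fcgr3 were highest in thymic immature cDC2, at 8207 ± 215, 312 ± 36.6 and 934 ± 104 (n = 3). Fcgr4 and Fcer1g were highest in splenic cDC2, at 558 ± 75.5 and 6585 ± 1066 (n = 3). Fcrla was highest in immature cDC1, at 731 ± 70.4 in the thymus and 714 ± 83.2 in the spleen (n = 4 each), values that overlapped. Fcgrt was highest in both thymic immature groups, at 4171 ± 307 in cDC2 (n = 3) and 4101 ± 727 in cDC1 (n = 4), again with overlapping samples.

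**Figure D1:**
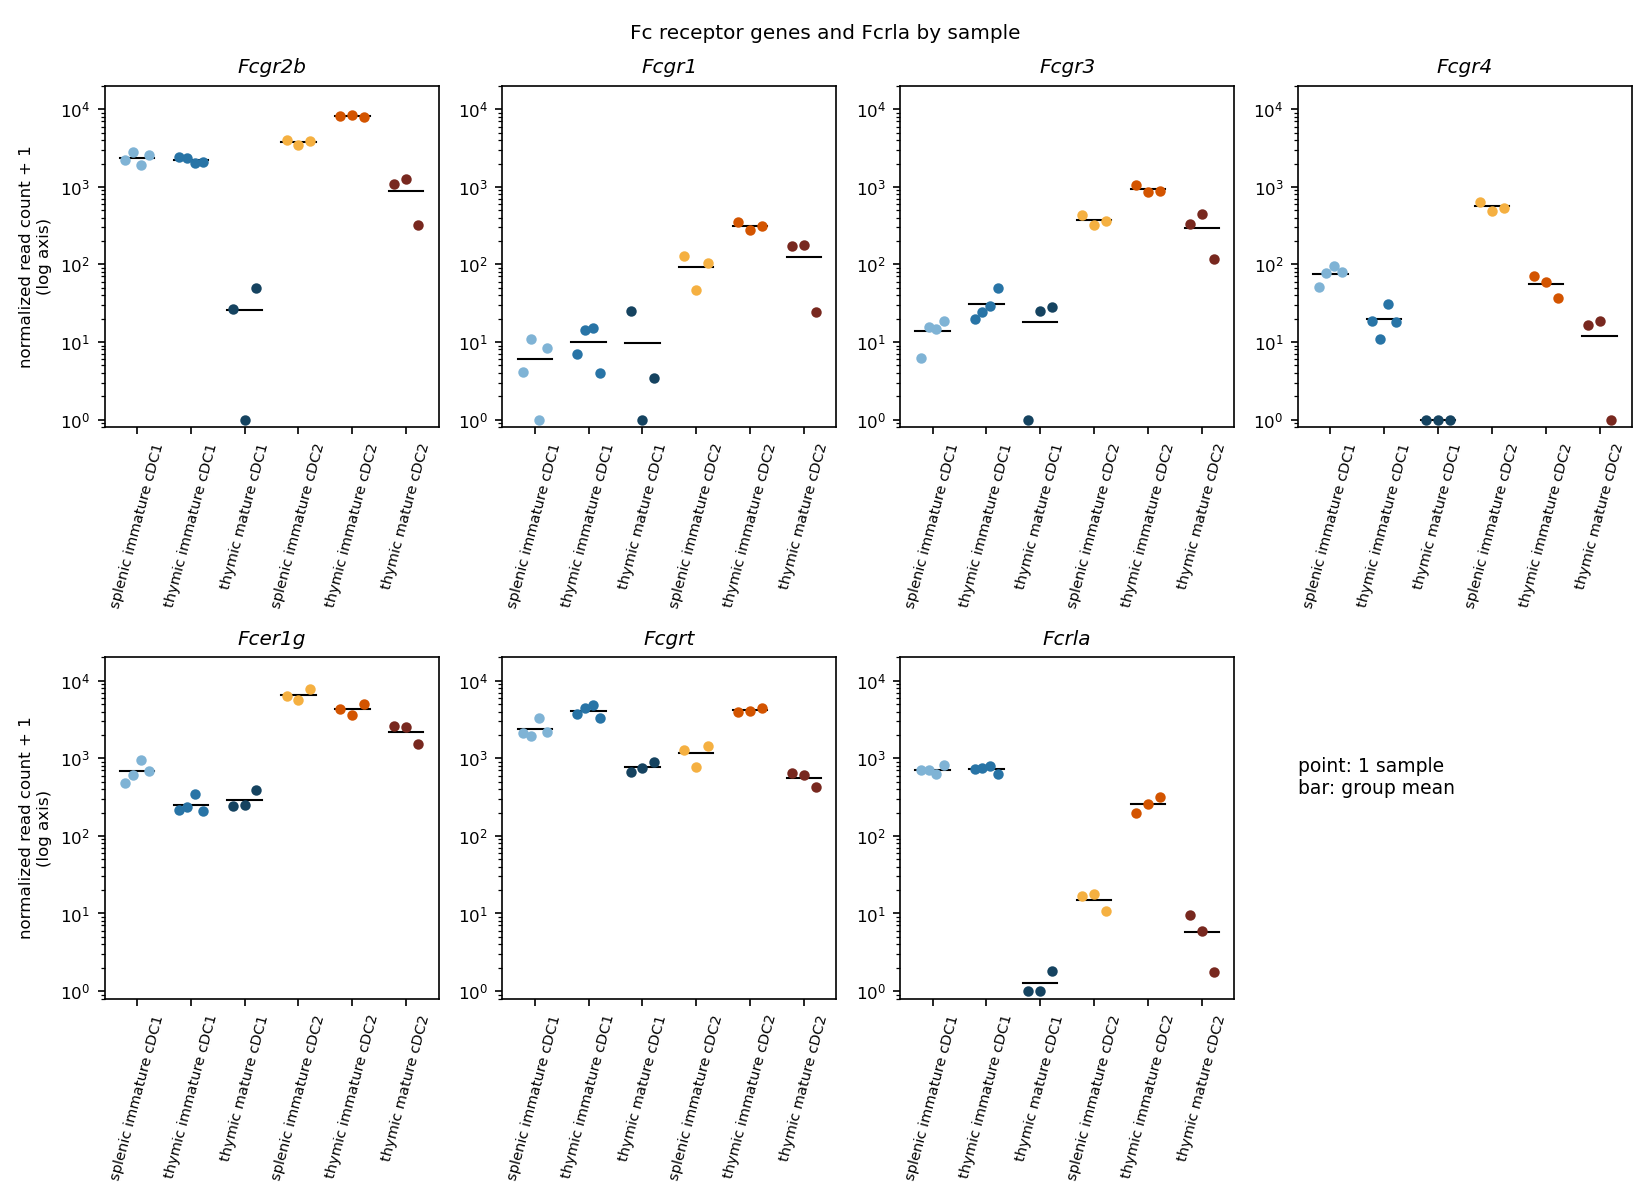
Normalized read count plus 1 on a log axis for each of the 7 genes, by sorted group; each point is 1 sample and each bar a group mean. Fcrla was at 0 to 0.800 in the 3 mature cDC1 samples and at 626 or more in all 8 immature cDC1 samples, and Fcgr4 was at 0 in all 3 mature cDC1 samples.

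Fcgr2b, the inhibitory receptor, was transcribed by every immature population and was nearly lost in mature cDC1. The normalized read count of Fcgr2b was 2240, 2810, 1926 and 2592 in splenic cDC1 and 2449, 2378, 2025 and 2085 in thymic immature cDC1. In thymic mature cDC1 it was 25.8, 0 and 48.0. In cDC2 it was 3968, 3424 and 3955 in the spleen, 8313, 8348 and 7960 in immature thymic cells, and 1094, 1276 and 320 in mature thymic cells, where the lowest value was that of replicate 3. No mature thymic sample overlapped the immature samples of its subset. From immature to mature thymic cDC1 the fitted difference of log2(value + 1) fell by 7.67 (SE 0.79, adjusted p = 5.5e-08, limma). Over all omissions of 1 library this difference was -8.75 to -5.94. From immature to mature cDC2 Fcgr2b fell by 3.42 (SE 0.85, adjusted p = 0.0023, limma) and without replicate 3 by 2.79 (adjusted p = 0.019). The fall was steeper in cDC1 than in cDC2, by a difference of 4.25 between the 2 changes (SE 1.16, adjusted p = 0.019, limma), of 4.87 without mature cDC2 replicate 3, and of 2.52 without mature cDC1 replicate 2, the library with no Fcgr2b read.

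Between subsets, Fcgr2b differed most in mature thymic cells, where cDC2 exceeded cDC1 by 6.13 (SE 0.85, adjusted p = 2.4e-05, limma), by 6.76 without mature cDC2 replicate 3 and by 4.40 without mature cDC1 replicate 2. In the spleen cDC2 and cDC1 samples did not overlap, at group means of 3782 and 2392, and differed by 0.67 (SE 0.79, adjusted p = 0.65, limma), less than the 2-fold threshold. In immature thymic cells the group means were 8207 in cDC2 and 2234 in cDC1, a difference of 1.88 (SE 0.79) that missed the threshold in the fit of all 6 groups (adjusted p = 0.11) and passed it without mature cDC1 replicate 2 (adjusted p = 0.00019, against 0.00019 to 0.21 over all omissions of 1 library), and with edgeR on the recovered reads (adjusted p = 0.00091). Thymic exceeded splenic immature cDC2 in the same way, with a difference of 1.12 (SE 0.85, adjusted p = 0.40), which passed without mature cDC1 replicate 2 (adjusted p = 0.025) and with edgeR (adjusted p = 0.060). Thymic and splenic immature cDC1 overlapped, with a difference of -0.09 (SE 0.73).

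Fcgr3, an activating low-affinity IgG receptor and the near copy of Fcgr2b, was mainly a cDC2 transcript. Fcgr3 values were 432, 322 and 363 in splenic cDC2, 1051, 856 and 894 in thymic immature cDC2, and 334, 441 and 118 in mature cDC2. In the 3 groups of cDC1 they lay between 0 and 48.5. The subsets did not overlap in any organ or state. Fcgr3 was higher in cDC2 than in cDC1 by 4.85 in the spleen (SE 0.80, adjusted p = 9.3e-05), by 5.02 in immature thymic cells (SE 0.80, adjusted p = 6.7e-05) and by 4.86 in mature thymic cells (SE 0.86, adjusted p = 0.00030, all limma; 5.43 without mature cDC2 replicate 3). Its differences between mature and immature cells passed the threshold narrowly. In cDC2 it fell by 1.84 (SE 0.86, adjusted p = 0.085, limma), and without mature cDC2 replicate 3 the difference was -1.27 (adjusted p = 0.30). That call was also lost without any 1 of the thymic immature cDC2 samples or mature cDC2 replicate 1 (adjusted p = 0.11 to 0.17). In cDC1, where the samples of both states overlapped, the difference was -1.69 (SE 0.80, adjusted p = 0.077, limma) and with edgeR -0.67 (adjusted p = 0.33), and without mature cDC1 replicate 1, which had no Fcgr3 read, it was -0.11 (adjusted p = 0.87). This call was also lost without thymic immature cDC1 replicates 3 or 4 (adjusted p = 0.11 and 0.17). Thymic immature values lay above splenic ones in both subsets without overlap, in cDC1 only narrowly and on few reads. There the lowest thymic value was 18.6 and the highest splenic one 17.7, on 18 to 48 and 5 to 46 reads per sample. The differences were 1.17 in cDC1 (SE 0.74, adjusted p = 0.42) and 1.33 in cDC2 (SE 0.86, adjusted p = 0.31, both limma), the latter past the threshold with edgeR (adjusted p = 0.062).

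Fcgr1, the high-affinity IgG receptor CD64 and a macrophage marker, was a transcript of cDC2 and near 0 in cDC1. Fcgr1 values were 129, 45.6 and 104 in splenic cDC2, 347, 274 and 315 in thymic immature cDC2 and 170, 178 and 23.5 in mature cDC2, again lowest in replicate 3. They lay between 0 and 23.96 in the 11 cDC1 samples. Fcgr1 was higher in cDC2 by 4.30 in the spleen (SE 0.95, adjusted p = 0.0018), by 5.14 in immature thymic cells (SE 0.95, adjusted p = 0.00034) and by 4.37 in mature thymic cells (SE 1.02, adjusted p = 0.0036, all limma; 5.32 without mature cDC2 replicate 3), although 1 mature cDC1 sample reached the level of the lowest mature cDC2 sample. Neither maturation nor organ passed the threshold for Fcgr1 in the fit of all 6 groups (adjusted p = 0.17 to 0.60, limma). The difference between mature and immature cDC2 was -1.77 (SE 1.02), and -0.83 without mature cDC2 replicate 3 (adjusted p = 0.57). Between thymic and splenic cDC2 it was 1.85 (SE 1.02). In each of these 2 comparisons the cDC2 samples did not overlap, and 3 of 33 alternatives passed the threshold. In cDC1, 1 of 33 alternatives passed it for maturation and 0 for organ.

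Fcgr4, the activating receptor that marks monocytes and macrophages in the mouse, was higher in the spleen than in the thymus in both subsets. Its normalized read count was 642, 494 and 539 in splenic cDC2 and 50.4, 76.9, 95.1 and 78.0 in splenic cDC1. In thymic immature cells it was 69.4, 58.3 and 35.8 in cDC2 and 17.7, 9.99, 29.6 and 17.2 in cDC1. In mature cells it was 15.4, 17.4 and 0 in cDC2 and 0 in all 3 samples of cDC1. Thymic values lay below splenic ones in each subset, without overlap. Fcgr4 was lower in thymic than in splenic cDC2 by a log2 difference of -3.38 (SE 0.75, adjusted p = 0.0027) and in cDC1 by -2.01 (SE 0.65, adjusted p = 0.046, both limma), and the latter missed the threshold without splenic cDC1 replicates 2 or 3 or thymic cDC1 replicate 2 (adjusted p = 0.10 to 0.14). It fell in maturing cDC2 by 3.00 (SE 0.75, adjusted p = 0.0024, limma), and without replicate 3 by 1.63 (adjusted p = 0.0086). In mature cDC1 no read was counted, and with 3 reads over the group as the floor immature cDC1 were at least 13.6-fold higher (adjusted p = 3.1e-05, limma). Mature cDC2, with 45 reads in all and 0 in replicate 3, which thus overlapped mature cDC1, were as pooled reads at least 8.86-fold higher on the same floor. The fitted difference was 2.74 (SE 0.75, adjusted p = 0.011, limma) and 4.12 without replicate 3. It ran from 1.07 to 6.66 over 33 alternatives, of which 1 lost the call. Splenic cDC2 exceeded splenic cDC1 by 2.90 (SE 0.70, adjusted p = 0.0037, limma). In immature thymic cells the subsets differed by 1.54 (SE 0.70, adjusted p = 0.14, limma), which passed with edgeR (adjusted p = 0.051) and without mature cDC2 replicate 3 (adjusted p = 0.0065).

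Fcer1g, the ITAM chain on which the 3 activating receptors depend, was a cDC2 transcript that cDC1 kept at a low level in both states. Fcer1g values were 6283, 5703 and 7769 in splenic cDC2, 4354, 3596 and 5098 in thymic immature cDC2, and 2580, 2520 and 1540 in mature cDC2. In cDC1 they were 479, 618, 953 and 696 in the spleen, 214, 233, 350 and 209 in immature thymic cells, and 240, 251 and 391 in mature cells. Fcer1g was higher in cDC2 by 3.29 in the spleen (SE 0.25, adjusted p = 2.7e-09), by 4.13 in immature thymic cells (SE 0.25, adjusted p = 1.4e-10) and by 2.91 in mature thymic cells (SE 0.26, adjusted p = 1.6e-07, all limma; 3.15 without mature cDC2 replicate 3). In the thymus it was lower than in the spleen in cDC1, by -1.43 (SE 0.23, adjusted p = 0.00014, limma), and differed by -0.60 in cDC2 (SE 0.26, adjusted p = 0.12). Mature and immature cDC1 overlapped, with a difference of 0.22 (SE 0.25, adjusted p = 0.47). Mature and immature cDC2 did not overlap and differed by -0.998 (SE 0.26, adjusted p = 0.0039), just short of the 2-fold threshold. The difference was -0.76 without mature cDC2 replicate 3, and it passed the threshold with lane as a covariate (-1.11, adjusted p = 0.0013), with the library name number as a block (-1.04, adjusted p = 0.0033) and without mature cDC2 replicates 1 or 2 or immature thymic cDC2 replicate 2 (-1.13 to -1.11). The changes of the 2 subsets differed by -1.22 (SE 0.36, adjusted p = 0.030, limma), and by -0.996 and -0.98 without mature cDC1 replicate 3 or mature cDC2 replicate 3, below that threshold.

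Fcgrt, the FcRn heavy chain, fell with maturation in both subsets and overlapped between immature cDC1 and cDC2 of the thymus. Fcgrt values were 2097, 1918, 3299 and 2220 in splenic cDC1, 3686, 4502, 4900 and 3316 in thymic immature cDC1, and 667, 740 and 892 in mature cDC1. In cDC2 they were 1296, 777 and 1460 in the spleen, 3930, 4066 and 4517 in immature thymic cells, and 645, 610 and 424 in mature cells. All thymic immature samples lay above the splenic and mature samples of their subset. Fcgrt fell with maturation by 2.41 in cDC1 (SE 0.22, adjusted p = 8.8e-09) and by 2.92 in cDC2 (SE 0.24, adjusted p = 3.3e-09, both limma), or without mature cDC2 replicate 3 by a difference of -2.73, and the difference between these changes did not pass the threshold (-0.51, SE 0.32, adjusted p = 0.33, and -0.32 without that library). Thymic cDC2 exceeded splenic cDC2 by 1.87 (SE 0.24, adjusted p = 7.0e-06, limma). In cDC1 the difference was 0.80 (SE 0.20, adjusted p = 0.011), less than 2-fold, and the organ differences of the subsets differed by 1.07 (SE 0.31, adjusted p = 0.053, limma), a call lost without splenic cDC2 replicate 2, splenic cDC1 replicate 3, thymic cDC2 replicate 3 or thymic cDC1 replicates 1 or 4 (0.80 to 1.03). Splenic cDC2 were lower than splenic cDC1 by -1.03 (SE 0.22, adjusted p = 0.0012, limma), which dropped below 2-fold without splenic cDC2 replicate 2 (-0.76) or splenic cDC1 replicate 3 (-0.87) and within each lane (-0.998 and -0.89). Immature thymic subsets differed by 0.04 (SE 0.22) and mature ones by -0.47 (SE 0.24, adjusted p = 0.17), or -0.28 without mature cDC2 replicate 3.

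Fcrla, the intracellular relative, was a transcript of immature cDC1 in both organs and of immature cDC2 in the thymus, and was nearly undetected in mature cells. Its normalized read count was 699, 704, 626 and 827 in splenic cDC1 and 737, 748, 804 and 635 in thymic immature cDC1. In mature cDC1, 1 read was counted in all, in 1 of 3 samples. In cDC2 it was 15.6, 16.9 and 9.78 in the spleen, 196, 255 and 313 in immature thymic cells, and 8.44, 4.87 and 0.785 in mature cells. The 2913 reads in immature and 1 read in mature thymic cDC1 gave, per size factor, a ratio of 1720 (95% counting interval 308 to 67948, exact binomial; adjusted p = 4.1e-13, limma). From immature to mature cDC2, Fcrla fell by 5.76 (SE 0.46, adjusted p = 3.1e-09, limma), and without replicate 3 by 5.08. The 2 changes differed by 3.46 (SE 0.63, adjusted p = 0.00098, limma), a size that depends on the pseudocount and ran from 2.08 with a pseudocount of 8 to 5.55 with 0.1, past the threshold each time, and was 4.15 without mature cDC2 replicate 3. Thymic exceeded splenic cDC2 by 4.09 (SE 0.46, adjusted p = 1.9e-06), whereas the organs differed by 0.04 in cDC1 (SE 0.40, adjusted p = 0.98), and the organ differences differed by 4.06 (SE 0.61, adjusted p = 0.00029, all limma). Within lane 5 the organ difference in cDC2 was 3.52 and within lane 8 it was 4.72. Fcrla was lower in cDC2 than in cDC1 by -5.60 in the spleen (SE 0.43, adjusted p = 3.8e-09) and by -1.54 in immature thymic cells (SE 0.43, adjusted p = 0.013, both limma). Mature cDC2 held 19 reads against 1 in mature cDC1, a ratio of 11.2 (95% counting interval 1.78 to 466, exact binomial), and the fitted difference of 1.93 (SE 0.46, adjusted p = 0.0045, limma) became 0.57 (adjusted p = 0.12) with a pseudocount of 8 and 2.61 without mature cDC2 replicate 3. In a fit of the mature groups alone it did not pass the threshold (adjusted p = 0.15).

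**Figure D2:**
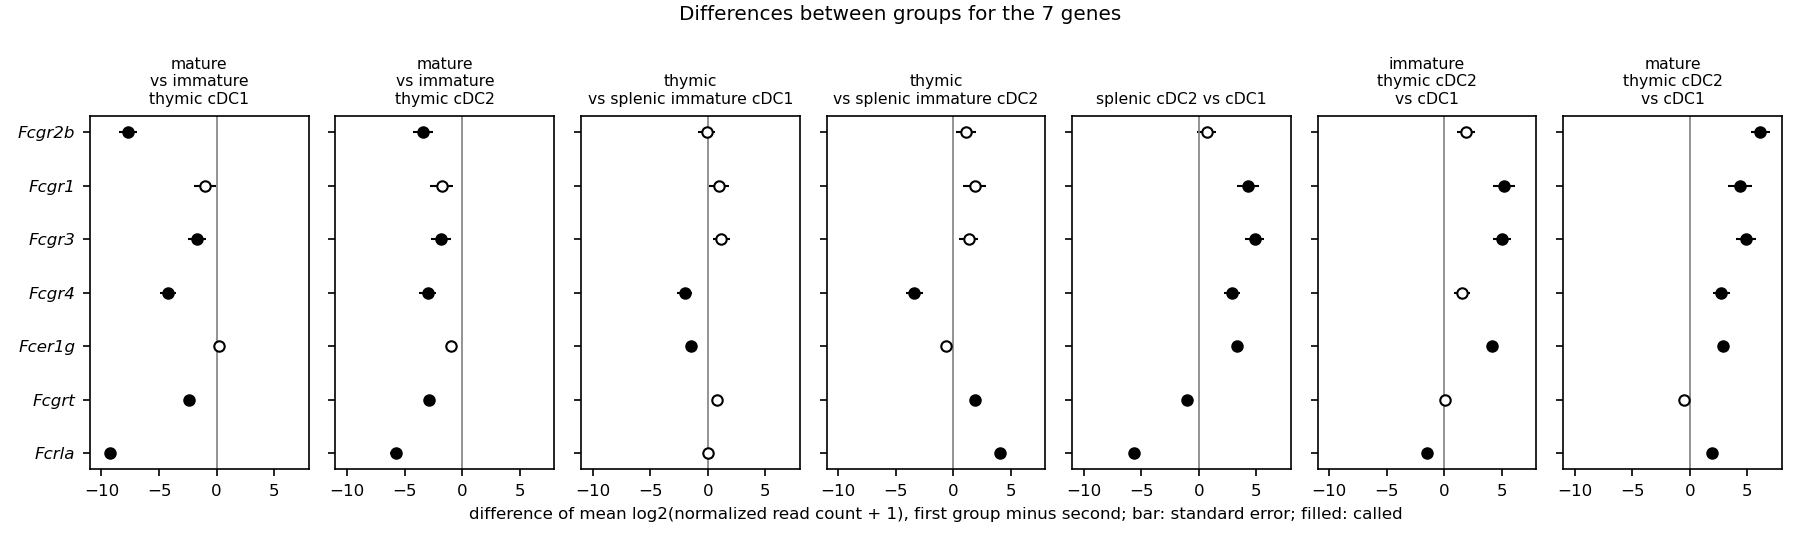
Fitted difference of mean log2(normalized read count + 1) for each of the 7 genes in the 7 comparisons of 2 groups, first named group minus second; bars are standard errors and filled points are called (limma adjusted p below 0.1 and more than 2-fold). In both maturation panels 5 of 7 points are filled, all below 0, and in the 3 panels of cDC2 against cDC1 Fcer1g, Fcgr1 and Fcgr3 are filled above 0.

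Counted together, 5 of the 7 genes were lower and 0 higher in mature than in immature thymic cDC1 (Fcgr2b, Fcgr3, Fcgr4, Fcgrt and Fcrla), where 24.5% of all 14966 genes tested were called lower and 21.3% higher (limma, adjusted p below 0.1 and more than 2-fold). The same 5 were lower and 0 higher in mature cDC2, where 17.0% of all genes were lower and 18.6% higher. In edgeR and in DESeq2 the cDC1 count of 5 became 4, without Fcgr3. In both maturation comparisons the count of 0 higher was also 0 at an unadjusted p below 0.05 in limma, edgeR and DESeq2. Between organs, 2 genes were lower in thymic cDC1 (Fcgr4 and Fcer1g) and 0 higher, against backgrounds of 4.49% and 4.26%. The count of 0 was also 0 at an unadjusted p below 0.05 in limma and 1 in edgeR, and DESeq2 called 1 higher (Fcgr3, 1.16, adjusted p = 0.076). In thymic cDC2, 2 were higher (Fcgrt and Fcrla) and 1 lower (Fcgr4), against 8.30% and 5.87% in limma. There edgeR called 5 and DESeq2 6 of the 7, counts to which these limma shares do not apply. Between subsets, 4 were higher in splenic cDC2 (Fcer1g, Fcgr1, Fcgr3 and Fcgr4) and 2 lower (Fcgrt and Fcrla), against 9.90% and 6.71%. In immature thymic cDC2, 3 were higher (Fcer1g, Fcgr1 and Fcgr3) and 1 lower (Fcrla), against 11.0% and 5.43%. In mature thymic cDC2, 6 were higher (all but Fcgrt) and 0 lower, against 14.6% and 4.36%, and the count of 0 was also 0 in edgeR and DESeq2 and at an unadjusted p below 0.05. Without mature cDC2 replicate 3, 4 genes were called in cDC2 maturation, 6 in the mature subsets and 3 in the maturation effect (Fcgr2b, Fcrla and Fcgr4, the last at 2.58). The effect of maturation differed between the subsets for 3 genes (Fcgr2b, Fcrla and Fcer1g), where 13.6% of all genes were called, and the effect of organ for 2 (Fcgrt and Fcrla), where 4.98% were. Samples did not overlap for 4 and 7 genes between mature and immature cDC1 and cDC2, for 4 and 7 between thymic and splenic cDC1 and cDC2, and for 7, 6 and 4 between the subsets in the spleen, the immature thymus and the mature thymus, where 55.4%, 59.96%, 17.8%, 39.3%, 31.6%, 34.8% and 32.8% of all genes tested did not overlap. The shares of all genes called higher or lower are those of limma with all samples. Counts from edgeR, DESeq2 or fewer libraries stand without a share of their own and are not read against a background. These comparisons share groups, and with 7 genes each count is a description.

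Per kilobase of annotated exon, the inhibitory receptor outweighed the summed activating ones in every immature cDC1 and thymic immature cDC2 sample and in no mature cDC2 sample. Fcgr2b made up 79.9% to 89.7% of the summed Fcgr1, Fcgr2b, Fcgr3 and Fcgr4 level in splenic cDC1 and 88.6% to 94.0% in thymic immature cDC1. The share was 45.8% to 50.1% in splenic cDC2, 64.4% to 69.1% in thymic immature cDC2 and 39.6% to 41.8% in mature cDC2, including replicate 3. The 3 cDC2 groups did not overlap in this share, although the sum of the 4 genes in mature cDC2 ran from 132 in replicate 3 to 557 normalized reads per kb. The ratio of Fcgr2b to Fcgr3 per kb was 2.75 to 3.26 in splenic cDC2, 2.37 to 2.92 in thymic immature cDC2 and 0.816 to 0.982 in mature cDC2. In mature cDC1 the 4-gene sum was 13.7 to 24.9 normalized reads per kb, on 14, 0 and 60 reads of Fcgr2b, and no share is read from it. With the length of the principal transcript in place of all exons, a choice made after the data were seen, the share of Fcgr2b was higher, at 56.0% to 60.1% in splenic, 70.7% to 74.9% in thymic immature and 46.7% to 48.6% in mature cDC2, with the groups in the same order. With that length the mean of Fcgr2b in mature cDC2 lay above that of Fcgr3, whereas with all exons it lay below.

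**Figure D3:**
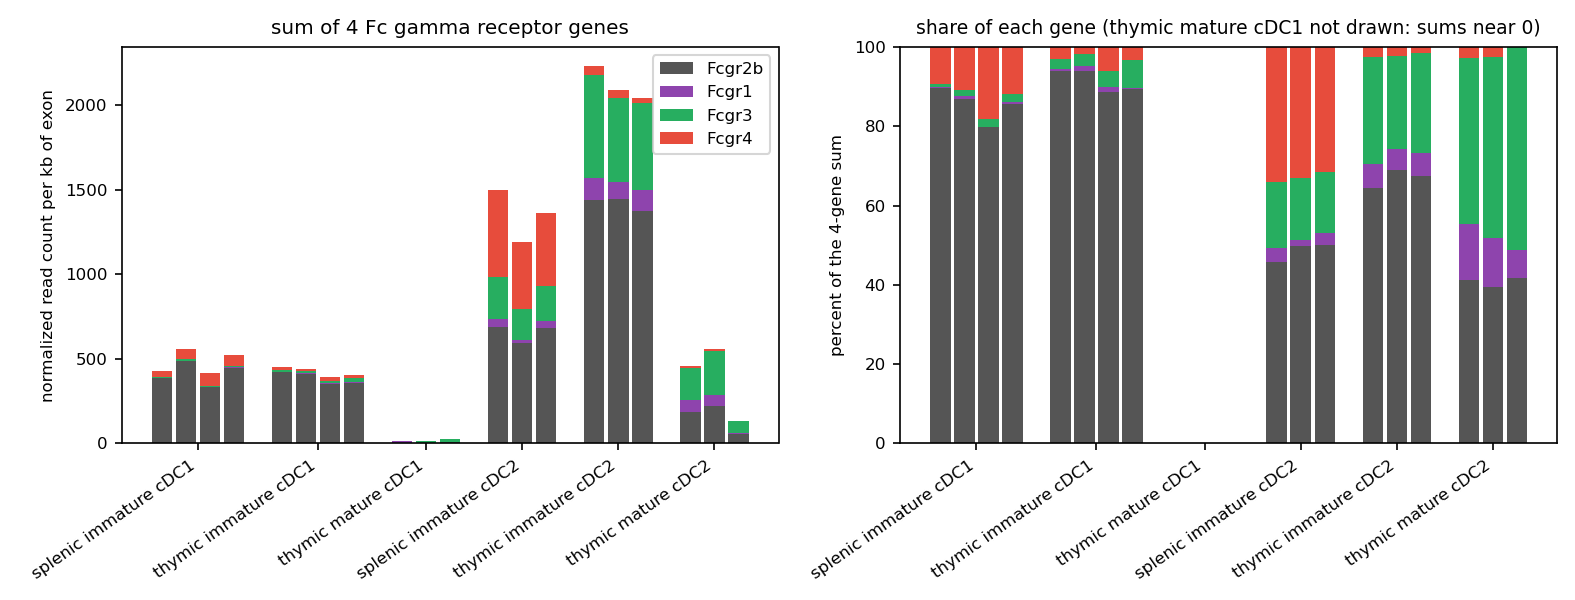
Left, normalized read count per kb of exon of Fcgr2b, Fcgr1, Fcgr3 and Fcgr4, stacked, with 1 bar per sample; right, the same as percent of the sum, without the 3 mature cDC1 samples. Fcgr2b fills 79.9% to 94.0% of the immature cDC1 bars and 39.6% to 69.1% of the cDC2 bars, and the Fcgr4 part stands at a mean of 445 normalized reads per kb in splenic against 43.4 in thymic immature cDC2.

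On the same per-length scale, the most abundant of the 7 transcripts was Fcgrt in immature cDC1 and Fcer1g in cDC2. In splenic and thymic immature cDC1, Fcgrt stood at 1134 ± 296 and 1951 ± 346 normalized reads per kb (SD, n = 4 each), and in splenic cDC2 Fcer1g stood at 7535 ± 1219 (SD, n = 3). In mature cDC1 Fcgrt and Fcer1g were left as the leading pair, at 365 ± 54.6 and 336 ± 96.4 (SD, n = 3), a difference within their spread whose order turned with the length of the principal transcript, and the other 5 genes were at 9.88 or below.

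The values of other cell types were read beside these results because several of the genes are known from macrophages, monocytes and B cells. The summed value of 9 macrophage markers was 12166 to 15523 in splenic, 11169 to 15974 in thymic immature and 6280 to 20830 in thymic mature cDC2, against 3375 to 8858 in cDC1. Within mature cDC2 the complement genes C1qa, C1qb and C1qc, made by macrophages, were at 4196, 4526 and 3544 in replicate 1, 4445, 5056 and 3640 in replicate 2 and 532, 480 and 501 in replicate 3, the library that was also lowest for each of the 7 genes. Its Ccr7 value was 91722, against 92491 and 115572 in the other 2 libraries, and its Flt3 value 19126, against 17353 and 16086. The cDC2 marker Sirpa was lower in replicate 3 too, at 5415 against 8425 and 8398. Sirpa does not stand for the 5 cDC2 markers, whose sum ran only from 13915 to 17547 in mature cDC2. The labels give exclusion of F4/80, a macrophage surface marker, for the sort of cDC1 and not for that of cDC2, while the study elsewhere describes cDCs in general as F4/80-. The part of macrophage RNA in the cDC2 values of Fcgr1, Fcgr2b, Fcgr3 and Fcer1g was not tested. The summed value of 6 monocyte markers was 7226 to 23700 in immature and 296 to 1532 in mature cells, lower in mature cells as were Fcgr2b, Fcgr4, Fcgrt and Fcrla, and its part was not tested. Neutrophil markers summed to 5.07 to 161 in all samples, with Retnlg at 0 in every sample, and T cell markers to 2.96 to 85.7 in immature and 207 to 525 in mature samples.

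The order of Fcrla over the groups was not that of the B cell markers. The summed value of 8 B cell markers was 577 to 1006 in splenic and 111 to 140 in thymic immature cDC1, while Fcrla overlapped between these groups. In cDC2 the sum was 704 to 743 in the spleen and 173 to 241 in immature thymic cells, the reverse of the order of Fcrla. Cd79a, a chain of the B cell receptor complex that was named after its values had been seen, had group means of 2.13 to 7.99. The sums above thus came mainly from other B cell markers, and Cd79a does not stand for the list. The part of B cell RNA in the Fcrla values was not tested. Plasmacytoid DC markers did move with Fcrla in cDC2: their sum was 2314 to 3422 in splenic, 7126 to 8052 in thymic immature and 1927 to 3045 in thymic mature cDC2, and Siglech had group means of 86.4, 889 and 38.2. In cDC1 that sum was 2122 to 3077 in the spleen and 1865 to 3136 in immature thymic cells, where Fcrla was about as high in both organs, and 1292 to 1327 in mature cells. The part of plasmacytoid DC RNA in the Fcrla value of thymic cDC2 was not tested. The natural killer marker sum was 114 to 186 in splenic cDC2 and at most 9.09 in the other groups, beside the splenic values of Fcgr4 and Fcgr3, and its part was not tested.

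**Figure D4:**
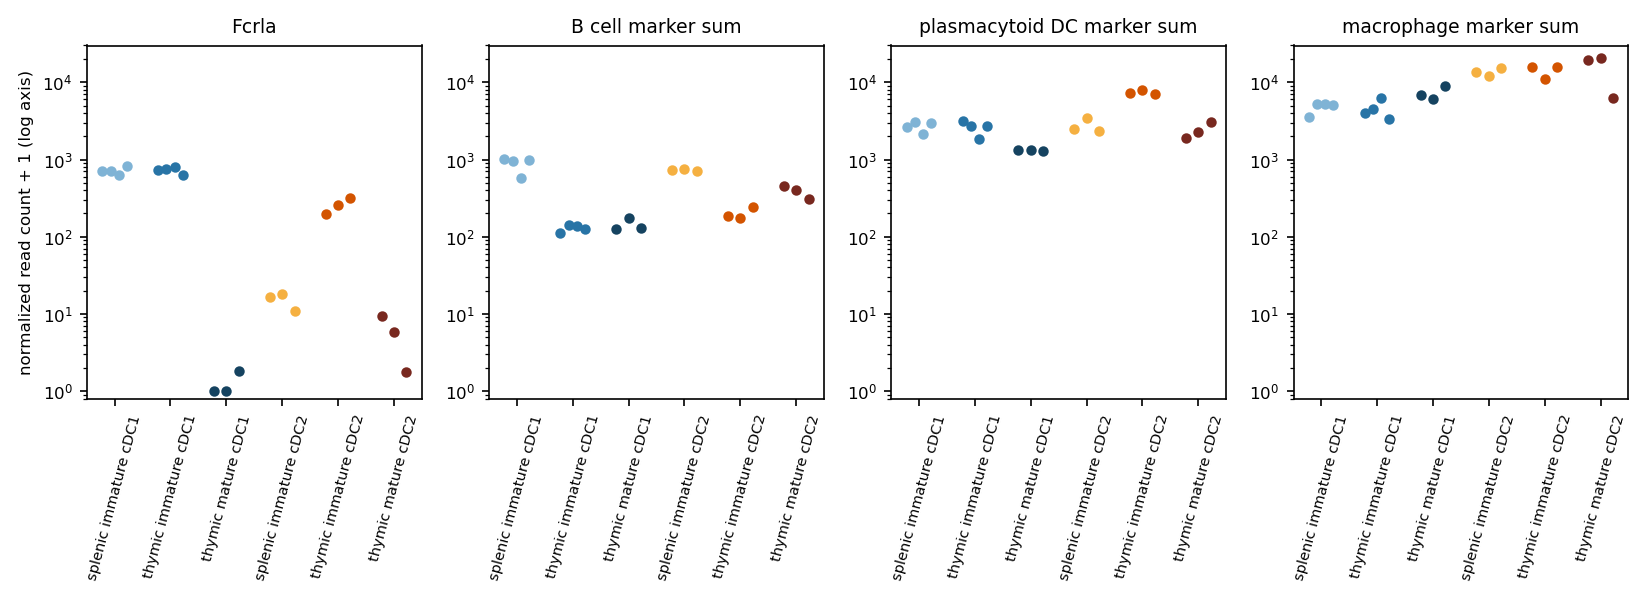
Normalized read count plus 1 on a log axis of Fcrla and of the summed B cell, plasmacytoid DC and macrophage markers, by sorted group; each point is 1 sample. Thymic immature cDC2 stand above splenic cDC2 for Fcrla and for the plasmacytoid DC sum and below them for the B cell sum.

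Of 13 other Fc receptor and Fc receptor-like genes, 7 were high enough to be tested. Fcrl1, a B cell surface relative of the Fc receptors, was at 2574 ± 137 in splenic and 124 ± 45.6 in thymic immature cDC2 (SD, n = 3 each), a difference of -4.43 (SE 0.61, adjusted p = 2.1e-05), and at 836 ± 86.4 and 94.0 ± 36.7 in cDC1 (SD, n = 4 each), a difference of -3.21 (SE 0.53, adjusted p = 0.00019, both limma). Fcrl1 thus had an organ difference opposite in sign to that of Fcrla in cDC2. B2m, the partner chain of Fcgrt, rose with maturation by 1.85 in cDC1 (SE 0.21, adjusted p = 1.5e-07) and by 1.48 in cDC2 (SE 0.22, adjusted p = 1.3e-05, both limma), while Fcgrt fell. B2m is shared with class I molecules. Trim21, the cytosolic antibody receptor, had group means between 527 and 803. The IgE receptor chains Fcer1a and Ms4a2, and Fcamr and Fcrl6, had group means of at most 2.13. Of the 7 tested, 2 were lower and 1 higher in mature cDC1, where 24.5% of all genes tested were lower and 21.3% higher, and 3 were lower and 1 higher in mature cDC2, where 17.0% and 18.6% were, with the same counts without mature cDC2 replicate 3 and B2m then at 1.54.

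The kinases, adaptors and lipases downstream of the activating receptors were mostly lower in mature cells. Of 19 such genes, all tested, 11 were lower and 1 higher in mature cDC1 and 10 lower and 2 higher in mature cDC2, with median differences of -1.16 and -1.08 against -0.04 and 0.04 over all genes tested, of which 24.5% were lower and 21.3% higher in cDC1 and 17.0% and 18.6% in cDC2. Without mature cDC2 replicate 3, 9 were lower and 2 higher in mature cDC2, with Lat2 at -2.58 and Fgr at -2.20, and Rac2 also still lower. The adaptor Lat2 fell by 4.25 in cDC1 and by 2.94 in cDC2 (SE 0.26 and 0.28, adjusted p = 2.3e-11 and 3.4e-08, limma), and the adaptor Lcp2 (SLP-76) fell by 3.32 in cDC1 (SE 0.20, adjusted p = 1.5e-11). The kinase Fgr and the GTPase Rac2 fell by 2.37 and 2.28 in cDC2 (SE 0.21 and 0.27, adjusted p = 1.6e-08 and 6.6e-07). The adaptor Blnk went the other way, rising by 3.96 in cDC1 (SE 0.49, adjusted p = 5.9e-07). Between subsets, 5 were higher and 0 lower in splenic cDC2, 6 and 0 in immature and 8 and 0 in mature thymic cDC2, where 9.90%, 11.0% and 14.6% of all genes tested were higher and 6.71%, 5.43% and 4.36% lower, and each count of 0 was also 0 at an unadjusted p below 0.05 and in edgeR and DESeq2. The kinase Syk was at 14658 ± 4510.0 in splenic cDC2 and 4248 ± 828 in splenic cDC1 (SD, n = 3 and 4). Between organs, 3 were lower and 0 higher in thymic cDC1 (0 higher also in edgeR, DESeq2 and at an unadjusted p below 0.05), and 4 lower and 1 higher in thymic cDC2, against 4.49% lower and 4.26% higher of all genes in cDC1 and 5.87% and 8.30% in cDC2.

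Of 9 genes that act downstream of ITIM receptors, 5 were lower and 2 higher in mature cDC1 and 4 lower and 2 higher in mature cDC2, with median differences of -1.23 and -0.95, beside the same 24.5% lower and 21.3% higher of all genes in cDC1 and 17.0% and 18.6% in cDC2. Without mature cDC2 replicate 3, 3 were lower and 2 higher in mature cDC2, with Dok1 at 3.19 and Cblb at 3.75. The phosphatase gene Inpp5d, which encodes the SHIP-1 that Fcgr2b recruits, had group means of 11700.0 to 19116 in immature and 2417 to 2794 in mature cells. The adaptor Dok1 rose by 3.68 in cDC1 and by 3.01 in cDC2 (SE 0.21 and 0.22, adjusted p = 6.9e-12 and 1.0e-09), and the ubiquitin ligase Cblb rose by 3.29 and 3.87 (SE 0.15 and 0.16, adjusted p = 4.1e-13 and 4.5e-13, limma). Between organs 1 gene was higher and 0 lower in thymic cDC1 (Dok3; 0 lower also in edgeR, DESeq2 and at an unadjusted p below 0.05), and 1 higher and 1 lower in thymic cDC2 (Dok2 and Cblb), against 4.26% higher and 4.49% lower of all genes in cDC1 and 8.30% and 5.87% in cDC2.

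Other receptors that pair with Fcer1g, and other ITAM adaptors, were mostly higher in cDC2, as Fcer1g was. Of 12 genes, 10 were tested, of which 9 were higher in splenic, 8 in immature thymic and 8 in mature thymic cDC2, with 0, 0 and 1 lower (limma), against 9.90%, 11.0% and 14.6% higher and 6.71%, 5.43% and 4.36% lower of all genes tested. Without mature cDC2 replicate 3, 8 were higher and 0 lower in mature thymic cDC2. In the spleen and the immature thymus the counts of 0 were also 0 in edgeR, DESeq2 and at an unadjusted p below 0.05. Clec4n (Dectin-2), a fungal sugar receptor that signals through Fcer1g, was at 340 ± 24.3 in splenic, 2040 ± 195 in immature thymic and 308 ± 167 in mature thymic cDC2 (SD, n = 3 each), and at most 36.6 in the means of the cDC1 groups. Tarm1 differed from the 7 genes in being higher in mature cDC1 than in immature cDC1, by 4.46 (SE 0.56, adjusted p = 8.5e-07, limma), although its mean there was 44.8. Of the 10 genes, 2 were higher and 2 lower in mature cDC1, and 1 higher and 4 lower in mature cDC2, with and without replicate 3, against 21.3% higher and 24.5% lower of all genes in cDC1 and 18.6% and 17.0% in cDC2. Between thymus and spleen, 0 were called in cDC1 by limma, edgeR or DESeq2 or at an unadjusted p below 0.05, where 4.26% of all genes were higher and 4.49% lower, and 3 were higher and 1 lower in cDC2 (limma), against 8.30% and 5.87%.

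Over the 20 samples the genes whose levels ran most like those of each member, by Pearson's r of log2(value + 1) among 10218 genes with a mean of at least 100, were as follows. Samples of a group share their sort, so that r mainly reflects group differences. Fcer1g ran most like Sirpa (r = 0.987), Ank (0.976) and Wls (0.973). Fcrla ran most like Naaa (0.980), Serpinf1 (0.977) and Mrpl42 (0.977), and Fcgr2b like Eepd1 (0.983), Ms4a6c (0.980) and Vps33a (0.977). Fcgrt ran most like Pdia6 (0.974), Synj2 (0.971) and Rexo2 (0.966), and Fcgr4 like Nod1 (0.967), Sema4d (0.957) and Themis2 (0.957). Fcgr3 ran most like Wfdc17 (0.930), Tbc1d16 (0.927) and Lilra6 (0.926), and Fcgr1 like Lpl (0.938), Clec4n (0.917) and Cst7 (0.910). Among the members themselves, Fcgrt and Fcrla had an r of 0.884 and Fcgr3 and Fcer1g one of 0.844, whereas the neighbours Fcrla and Fcer1g had one of -0.16.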

How the data were processed

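RNA of FACS-sorted cDCs was sequenced by the authors as stranded paired-end libraries, trimmed with Cutadapt, aligned to mm10 with STAR and counted per Ensembl gene with HTSeq-count. The deposited values are a signal, namely gene read counts scaled with 1 DESeq2 size factor in each library, so that they are relative to depth and not to gene length. The strand setting and the Ensembl release are not given in the sources used here. Reads were recovered by dividing by the smallest positive value of each library, and 100% of the values came out whole within 0.01 read.

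The 7 members and all gene lists were chosen with earlier results of these data known. Deposited values, after addition of a pseudocount of 1 and log2 transformation, were modelled in limma 3.58.1 (R 4.3.3, trend) with 1 mean for each of 6 groups. The 14966 genes reaching 10 in 3 or more samples were tested. Calls needed a Benjamini-Hochberg adjusted p below 0.1 over these genes and more than a 2-fold change. Differences are on the scale of log2(value + 1). For low genes they can fall short of or exceed the ratio of group means, since the pseudocount shrinks them and a library at 0 enlarges them. In cDC1 maturation the fitted fall of Fcrla was 599-fold against 2742 by group means. That of Fcgr2b was 203-fold against 90.8. Levels of different genes were compared per kb of the union of GENCODE M21 exons, in which 37607 of 37734 identifiers were found. Alternatives were edgeR 4.0.16 and DESeq2 1.42.0 on recovered reads, other scalings, pseudocounts and filters, 21 separate libraries, the lane as covariate, a block on the number in the library names, and omission of each library. All 7 members were named in every comparison, and from each list of related genes up to 3 called genes per comparison with the largest change and a mean of at least 100, with genes of the Fc receptor list also by level. For each member the 3 genes with the highest r were named. Inpp5d and the marker genes were named for their roles after their values had been seen. The tests were checked on simulated data in which only genes with a mean of at least 100 were changed. That check does not cover genes near 0 in a group or a library that stands apart. Depth per library was 14266867 to 40119669 reads.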

Additional observations from a re-analysis of the deposited data

Results flagged for a closer look

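No sample of splenic or thymic immature cDC1, the groups of 4, stood apart for any of the 7 genes in the 14 values tested (Dixon's test). Groups of 3 samples were not tested.

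The response to maturation differed between the subsets for 3 genes, by the interaction in the fit of all 6 groups. The difference of the cDC2 change minus the cDC1 change was 4.25 for Fcgr2b (adjusted p = 0.019), 3.46 for Fcrla (adjusted p = 0.00098) and -1.22 for Fcer1g (adjusted p = 0.030, all limma). For Fcgr2b and Fcrla both subsets fell and cDC1 fell further, with 25.8, 0 and 48.0 left of Fcgr2b and 1 read of Fcrla, so the sizes depend on the pseudocount. Mature cDC2 carried 6280 to 20830 of summed macrophage markers, and the part of other cells in what remained of Fcgr2b was not tested.

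The difference between thymus and spleen differed between the subsets for Fcrla, by 4.06 (adjusted p = 0.00029), and for Fcgrt, by 1.07 (adjusted p = 0.053, both limma). Fcrla was higher in each of 3 thymic than in each of 3 splenic cDC2 samples and overlapped in cDC1.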

How the results depend on the processing

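Between thymic and splenic cDC1, the 2 called genes became 1 with a pseudocount of 0.1 or a log2 threshold of 2, and 1 to 3 on leaving out single libraries, where Fcgr4 was lost without splenic cDC1 replicates 2 or 3 or thymic cDC1 replicate 2. Between thymic and splenic cDC2, the 3 called genes became 5 with edgeR (TMM or RLE) and with a pseudocount of 8, 6 with DESeq2 and in a fit of those groups alone, and 3 to 4 on leaving out libraries. The organ effects differed for 2 genes, for 1 with a log2 threshold of 2, and for 1 to 2 on leaving out libraries, where Fcgrt was lost. Counts of the other 6 comparisons stayed within 1.5 times under all alternatives. For edgeR, DESeq2 and single omissions the share of all genes called is not given beside these counts. Over all genes tested, calls fell with a log2 threshold of 2 from 6846 to 3797 and from 5328 to 2730 (cDC1 and cDC2 maturation), 1310 to 655 and 2120 to 999 (organs), 2486 to 1259, 2457 to 1420 and 2836 to 1575 (splenic, immature and mature subsets), and 2042 to 1109 and 745 to 428 (maturation and organ effects). With no fold threshold they were 2301 and 3965 (organs) and 4390, 3895 and 4535 (subsets), and in a fit of the mature groups alone 1705.

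Of 2093 values of single members under an alternative, 1991 kept direction and side of the threshold, 48 passed it anew, 35 lost it and 19 changed sign, all of the last uncalled. On leaving out libraries, the sign changed for Fcgr1 (-2.26 to 0.065) and Fcer1g (-0.0019 to 0.39) in cDC1 maturation, for Fcrla between organs in cDC1 (-0.026 to 0.11, and -0.0072 with 21 libraries), for Fcgrt in immature thymic subsets (-0.057 to 0.13), for Fcgr1 (-1.84 to 0.48) and Fcgr3 (-1.73 to 0.68) in the maturation effect, and for Fcgr3 in the organ effect (-0.024 to 0.51). With a pseudocount of 0.1 the maturation effects of Fcgr1 and Fcgr3 were 0.30 and 0.94, and with 8 that of Fcgr4 was -0.17. The cause was not tested.

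Samples with the same number in their library names did not deviate together in every pair (r from -0.15 to 0.46 within immature subsets and -0.12 for the 1 mature pair). The number was not taken as pairing, although so few pairs cannot show whether it marks shared pools of mice. Thymic mature cDC1 replicate 1 also carried the number of thymic immature cDC1 replicates 3 and 4, and pairs across maturation were not compared. The mean r of pairs of cDC1 and cDC2 with the same number was 0.16 in the spleen and 0.077 in the immature thymus, against -0.084 and -0.039 for pairs with different numbers. With the number as a random replicate block, 5, 6, 2, 3, 6, 5, 6, 3 and 2 of the 7 genes were called, in the order cDC1 and cDC2 maturation, cDC1 and cDC2 organ, splenic, immature and mature subsets, and the maturation and organ effects. As a fixed block it gave 6 for splenic and 6 for immature thymic subsets. The shares of all genes called with these blocks are not given here. Scaling by TMM or RLE moved the median over all genes by at most 0.04. Depth limits Fcgr4 and Fcrla in mature cDC1, at 0 and 1 reads.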
